A study of Mus musculus with 6 samples.

Results

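Oxidative phosphorylation is carried out by 5 protein complexes of the inner mitochondrial membrane and by cytochrome c, and the genes of this machinery were followed in mouse hepatocytes. Protein-coding genes were taken by symbol: those starting with Nduf, Uqcr, Cox4i, Cox5, Cox6, Cox7, Cox8, Atp5 or mt-, together with Sdha, Sdhb, Sdhc, Sdhd, Cyc1 and Cycs. The rule found 109 genes among the 55487 gene rows of the files, 96 in the nucleus and 13 in mitochondrial DNA. Of the 96 nuclear genes, 84 encode subunits or their tissue isoforms, and 12 encode assembly factors (8 Ndufaf genes) or genes that share the name without being a regular subunit (Cox7a2l, Ndufa4l2, Atp5s and a second annotated entry for Atp5o).

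Hepatocytes, the metabolic cells that make up most of the liver, were compared between wild-type (WT) mice and mice homozygous for AEG-1-C75S, with 3 libraries in each of the 2 groups. AEG-1 is encoded by Mtdh, and C75S puts a serine in place of one of its cysteines; the title of the series names palmitoylation, the attachment of a fatty acid to a cysteine, as its subject. Mice of both genotypes were the offspring of heterozygous parents, were 6 to 8 weeks old and carried the treatment label Control, and RNA was taken 48 h after the cells were isolated. The change is present in the whole animal, and nothing in the labels ties a library to a mouse, so that n counts libraries and p-values measure the spread between them, which may be technical.

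Complexes I and II pass electrons from NADH and succinate to ubiquinone, complex III passes them on to cytochrome c, and complex IV passes them to oxygen. Complexes I, III and IV pump protons as they do so, and complex V, the ATP synthase, lets protons return through its membrane part (Fo) to drive ATP synthesis in its catalytic head (F1). Complex II is built from nuclear genes alone, while complexes I, III, IV and V each combine nuclear-encoded subunits with a few that are encoded in mitochondrial DNA, and hepatocytes depend on the pathway for the ATP used in urea and glucose synthesis.

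The libraries held 16944723 to 21044292 counts on genes, and 3 counts corresponded to 0.143 to 0.177 counts per 1000000 counts (CPM). The spread between libraries beyond counting noise (common biological coefficient of variation) was 5.97%. Mtdh lay between 192 and 212 CPM in C75S and between 191 and 201 CPM in WT, and a gene count does not read the changed codon, so that it does not check the labels. The 6 hepatocyte markers (Alb, Apoa1, Ttr, Serpina1a, Tat and Cps1) summed to 62118 to 74309 CPM in C75S and 70037 to 77637 CPM in WT, and 0 of them passed the test between genotypes. The 5 Kupffer cell and macrophage markers summed to 95.3 to 139 CPM in C75S and 101 to 133 CPM in WT. Cd68 made up nearly all of that sum, while Clec4f, Vsig4, Adgre1 and Marco lay under 1 CPM each on average. The 5 stellate cell markers summed to 55.1 to 72.5 CPM in C75S and 69.2 to 91.1 CPM in WT. Most of that was Reln (log2 fold change -0.36, SE 0.15, edgeR adjusted p = 0.394), with Lrat, Des and Pdgfrb under 1 CPM, whereas Acta2 was higher in C75S, at 4.46 to 4.996 against 2.28 to 3.23 CPM (edgeR adjusted p = 0.0255). The 5 cholangiocyte markers summed to 144 to 197 CPM in C75S and 122 to 133 CPM in WT. Of these, 1 was called, Krt19, at 8.21 to 10.6 against 5.19 to 5.70 CPM (edgeR adjusted p = 0.00151). Krt7 and Epcam lay under 1 CPM each on average, so most of the sum was Sox9 and Spp1, which were not called. The 5 endothelial markers summed to 31.0 to 41.5 and 29.6 to 40.0 CPM with 0 calls. In libraries of this kind fewer cells of a type and less RNA per cell cannot be told apart.

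Of the 13 genes encoded in mitochondrial DNA, 7 were counted at 152 CPM or more in every library and 6 were counted at or near 0 in every library. The 6 were mt-Co2 and mt-Co3 (2 of the 3 subunits that form the core of complex IV), mt-Atp6 and mt-Atp8 (Fo subunits of complex V) and mt-Nd3 and mt-Nd4l (membrane-arm subunits of complex I). Over the 6 libraries together, mt-Co2 had 2 counts, mt-Nd4l had 1 and the other 4 had 0. A position on chromosome 1 of the nuclear genome bears on them: 7 annotated unprocessed pseudogenes between 24611535 and 24616197 (GRCm38, minus strand), a block of 4663 bases, repeat mitochondrial sequence. At an identity of at least 98%, copies there cover 99.6% of mt-Co2 (Gm28661), 99.9% of mt-Co3 (Gm28437), 99.6% of mt-Atp6 (Gm10925), 99.1% of mt-Nd3 (Gm28438) and 99.0% of mt-Nd4l (Gm10222). For 4 of these 5 the identity was 100%, and for mt-Nd3 it was 99.7%.

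The start of mt-Co3 (chrM:8607-8666) and of its copy (chr1:24613912-24613971, minus strand) is shown because a read from either is spelled alike, and the start of mt-Nd3 (chrM:9459-9518) and its copy (chr1:24613060-24613119, minus strand) because it holds the 1 base, in capitals, by which these 2 differ over 345 aligned bases. The 43 bases shared by mt-Atp8 and mt-Atp6 (chrM:7927-7969) are shown because a read inside them belongs to both genes; the capitals mark the start codon of mt-Atp6. All are in GRCm38, 5′ to 3′.
mt-Co3: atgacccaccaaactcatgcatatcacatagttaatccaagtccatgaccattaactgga
Gm28437: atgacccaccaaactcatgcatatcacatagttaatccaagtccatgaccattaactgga
mt-Nd3: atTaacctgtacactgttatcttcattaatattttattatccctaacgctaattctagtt
Gm28438: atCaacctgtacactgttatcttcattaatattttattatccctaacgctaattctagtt
mt-Atp8 and mt-Atp6: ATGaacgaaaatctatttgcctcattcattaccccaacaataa

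The files keep reads that align to several places in a summary row, which held 17.98% to 18.54% of reads, and count them to no gene. The 7 pseudogenes had 62 counts over all libraries, 40 of them on the copy of mt-Co1. Both the mitochondrial gene and its copy in this block were thus at or near 0 where the 2 are alike over their whole length. Copies that differ more had more counts. On chromosome 2, Gm13341 repeats 100% of mt-Co2 at an identity of 95.9% and had 241 counts, and Gm13340 repeats 100% of mt-Co1 at 97.6% and had 577. How many of the multimapping reads came from these genes was not tested. mt-Atp8 (chrM:7766-7969) is the exception: no annotated copy of it of at least 75 bases was found. It shares its last 43 bases with mt-Atp6, of which Gm10925 covers 99.6%. It lies between mt-Co2 and mt-Atp6, whose aligned parts are 233 bases apart in mitochondrial DNA and whose copies are 233 bases apart on chromosome 1, in a stretch without an annotated transcript. No level and no genotype comparison are given for these 6 genes, and their 0 to 2 counts are not read as absence of the transcripts.

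**Figure D1:**
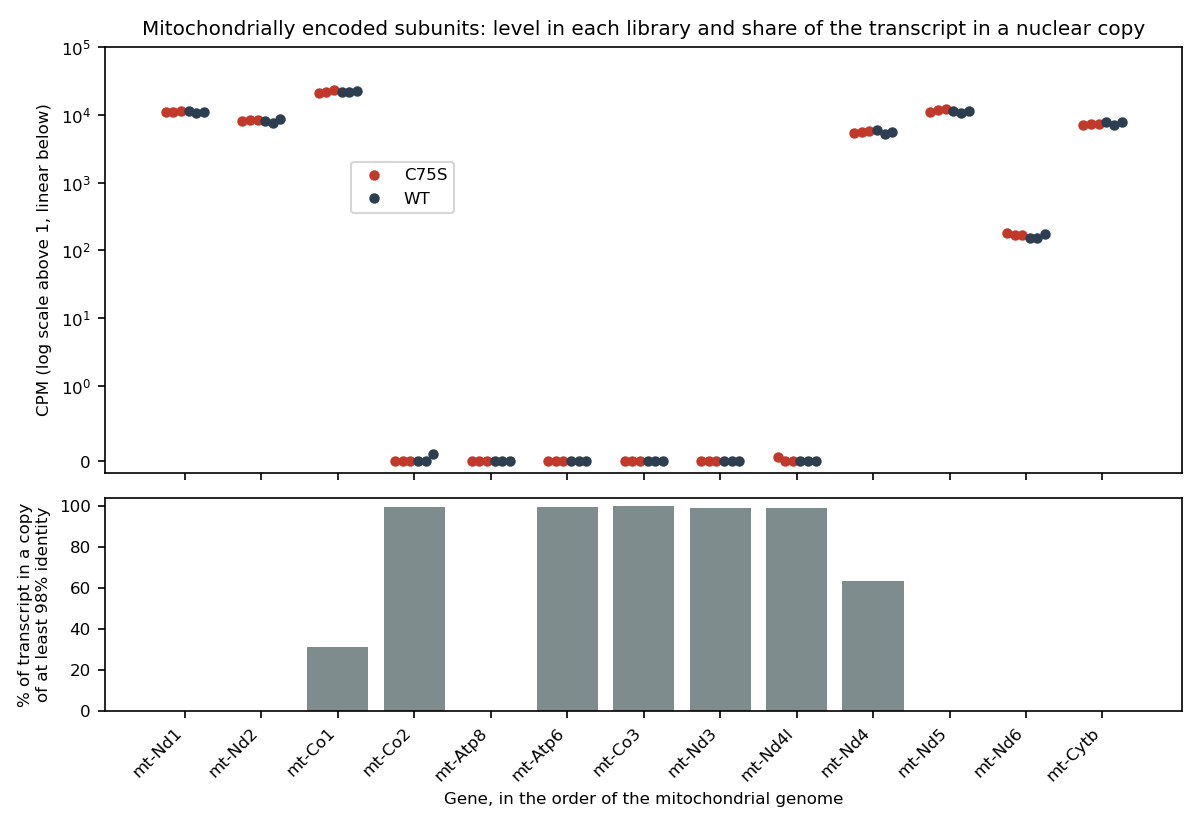
Upper panel: CPM of each mitochondrially encoded gene in each library (points, C75S in red, WT in dark blue; the axis is logarithmic above 1 and linear below). Lower panel: percent of the transcript found in a nuclear copy of at least 98% identity. The 6 genes at 0 to 2 counts include all 5 that are covered over 98%, and mt-Atp8.

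The other 7 mitochondrial genes were compared per kilobase of their own length, as the mean CPM per kilobase over 6 libraries. On this scale mt-Co1, the catalytic subunit of complex IV, had the highest level at 14174. mt-Nd1 followed with 11535, mt-Nd2 with 7901, mt-Cytb with 6484, mt-Nd5 with 6248 and mt-Nd4 with 4045, and mt-Nd6 was lowest at 320. At an identity of at least 98%, copies cover 31.3% of mt-Co1 and 63.6% of mt-Nd4. All counts of a gene were then divided by its length outside such a copy. The level became 20620 for mt-Co1 and 11105 for mt-Nd4, which moved mt-Nd4 from the sixth place of the 7 to the third. At an identity of at least 95%, a cutoff chosen after the data had been seen, copies cover 100% of mt-Co1, 52.3% of mt-Nd5 and 49.1% of mt-Nd2. The corrected levels and their order thus hold for the 98% cutoff alone.

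mt-Nd6 is the one mitochondrial protein gene encoded on the other strand, and both strands of mitochondrial DNA are transcribed as long precursors. Reads on the strand opposite to mt-Nd6 made up 96.0% of all reads over the gene, from 95.7% to 96.2% by library, or 3788 to 4287 CPM beside 152 to 178 CPM on its own strand. For mt-Nd5, its neighbour, the opposite strand held 1.84% of reads, for mt-Nd4 0.59% and for each of mt-Nd1, mt-Nd2, mt-Cytb and mt-Co1 under 0.2%. The level of mt-Nd6 given here rests on the strand-specific counts.

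Between genotypes, mt-Co1 was measured at 21197, 21340 and 22854 CPM in C75S replicates 1 to 3 and at 21904, 21755 and 22340 CPM in WT replicates 1 to 3. The groups overlapped, and the log2 fold change, here and below taken as C75S over WT, was -0.01 (SE 0.06, edgeR quasi-likelihood adjusted p = 0.960). mt-Nd5, a proton-pumping subunit of complex I, lay at 11015, 11863 and 12153 CPM in C75S and at 11296, 10689 and 11362 CPM in WT. Here too the groups overlapped, with a value of 0.07 on the log2 scale (SE 0.06, edgeR adjusted p = 0.677). mt-Cytb, a heme-carrying subunit of complex III, had the lowest log2 fold change of the 7, -0.08 (SE 0.06, edgeR adjusted p = 0.644), and mt-Nd6 the highest, 0.09 (SE 0.06, edgeR adjusted p = 0.521). For all 7 the 95% interval of the fold change lay within 1.2-fold in both directions.

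The 7 genes and the 6 near 0 together made up 6.61% ± 0.06 (SD, n = 3) of the counts in C75S libraries and 6.52% ± 0.24 (SD, n = 3) in WT libraries. The libraries lay between 6.56% and 6.68% in C75S and between 6.25% and 6.70% in WT, so the groups overlapped. Without WT replicate 2, the library with the lowest share, the difference of C75S from WT changed sign, from 0.09 to -0.05 percentage points. Nuclear-encoded subunits took 0.931% ± 0.005 in C75S (between 0.926% and 0.936%) and 0.913% ± 0.021 in WT (between 0.891% and 0.932%). The ratio of mitochondrially to nuclear-encoded subunit CPM was 7.09 ± 0.08 in C75S and 7.14 ± 0.29 in WT. Since 6 mitochondrial genes were not countable, both the share and the ratio cover part of the mitochondrial genome.

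The comparison of C75S with WT was made with edgeR's quasi-likelihood test over 12741 genes, of which 396 (3.11%) had a Benjamini-Hochberg adjusted p under 0.05; 222 (1.74%) were higher and 174 (1.37%) lower in C75S. Of the 109 genes of oxidative phosphorylation, 96 passed the filter on low counts and were tested, and 0 were called in either direction. DESeq2 called 0 of them as well, beside 387 (3.04%) of all genes. At an unadjusted p under 0.05 there were 4 members, all higher in C75S, where 1709 (13.4%) of all genes reached that level and 880 (6.91%) did so with a higher value in C75S. Of the 96, 58 had a positive and 38 a negative log2 fold change, and the median was 0.02, beside -0.003 over all genes tested. The groups did not overlap for 8 members that were higher in C75S (Ndufb8, Ndufs4, Ndufs5, Ndufs3, Ndufv1, Atp5j2, Atp5k and Atp5mpl) and for 2 that were lower (Cox6c and Atp5s), while 9.02% of all genes lay apart in the first direction and 8.96% in the second.

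The intervals bound what could have been missed between these libraries, whose spread may be technical and need not include that between animals. The 95% interval of the fold change lay within 1.1-fold in both directions for 17 of the 96 genes, within 1.2-fold for 74, within 1.5-fold for 90 and within 2-fold for 95. The exception at 2-fold was Cox7a1, a muscle isoform near the limit of detection. In data simulated from these libraries, the same test called 64.5% of 200 genes changed by 1.5-fold and 18.5% of 200 changed by 1.2-fold. Those genes were drawn from all 12741 tested, whose median SE was 0.09, beside a median SE of 0.06 for the 96 members, so the simulated shares do not apply to the members directly.

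**Figure D2:**
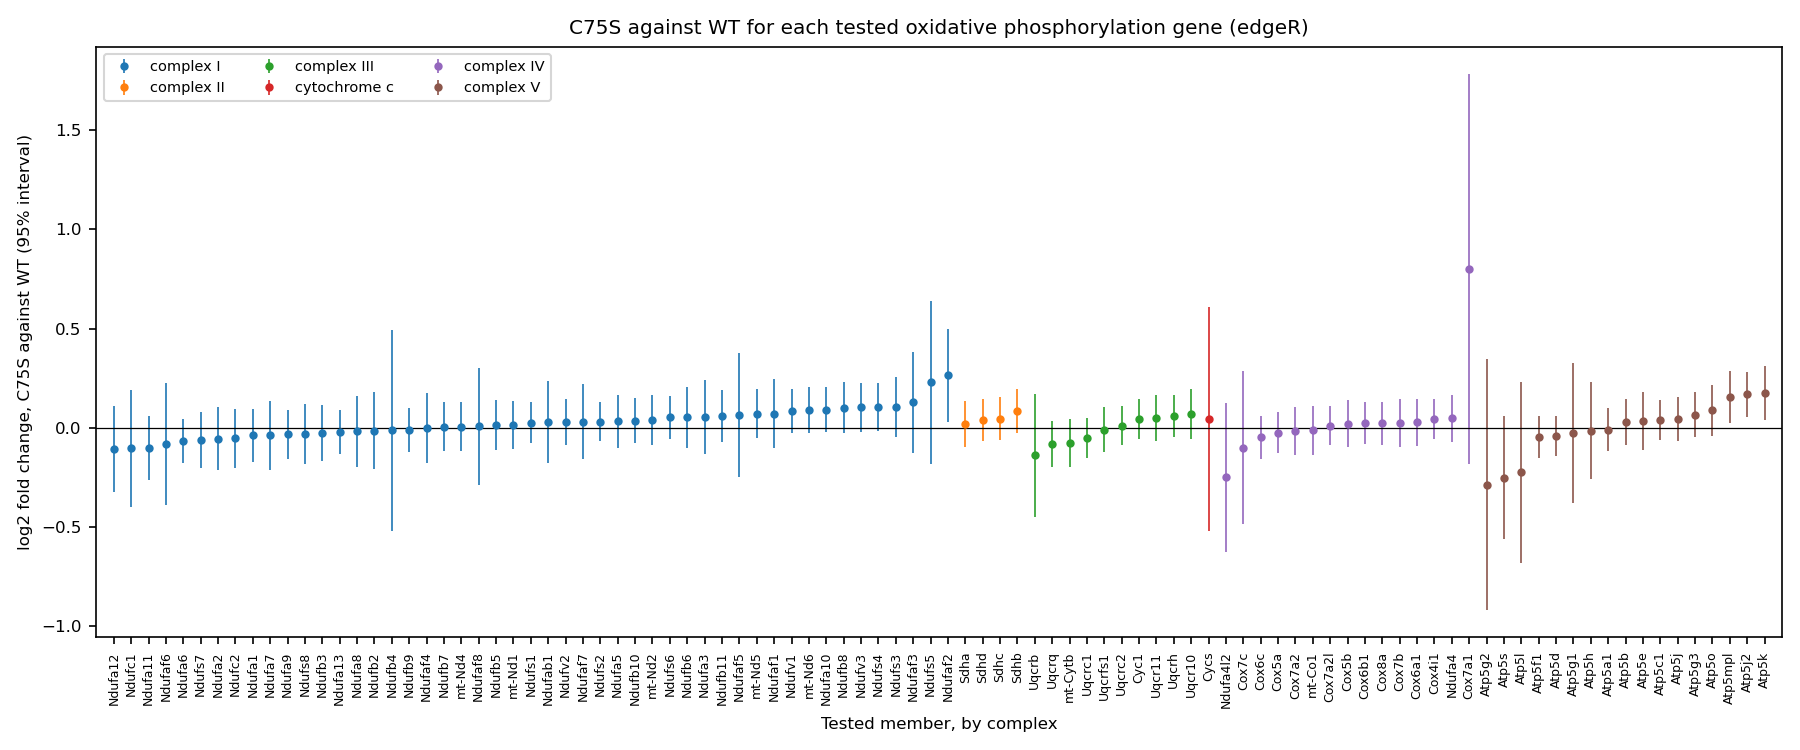
Log2 fold change of C75S against WT for the 96 tested members (points) with 95% intervals (bars), coloured by complex and ordered by value within each. Nearly all points lie close to 0, and the wide intervals belong to genes with few counts, such as Cox7a1, and to Ndufa4l2.

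Complex I was represented by 36 nuclear subunits, all tested, with a median log2 fold change of 0.01, 19 positive and 17 negative values and 0 calls. Its 7 nuclear core subunits, which carry the flavin and the iron-sulfur clusters, had a median of 0.03, and its 29 accessory subunits a median of -0.01. Ndufv1, which binds NADH, lay at 105, 105 and 105 CPM in C75S and at 92.6, 103 and 103 CPM in WT. The groups did not overlap, and the log2 fold change was 0.08 (SE 0.05, edgeR adjusted p = 0.535). Ndufs4, an accessory subunit near the NADH-binding module, lay at 60.7, 56.8 and 57.0 CPM in C75S and at 53.4, 55.4 and 53.4 CPM in WT (log2 fold change 0.11, SE 0.06, edgeR adjusted p = 0.472). Ndufs5 had the highest log2 fold change among the subunits, 0.23 (SE 0.20), but from 2.88 to 4.25 CPM over the 6 libraries, and 46.9% of its transcript is repeated in a copy elsewhere. At the other end were Ndufa12 at -0.11 (SE 0.10) and Ndufc1 at -0.10 (SE 0.14), both with overlapping groups.

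The 8 Ndufaf genes, which assist complex I assembly without staying in it, had a median log2 fold change of 0.05. Ndufaf2, which acts late in assembly, was measured at 14.8, 14.9 and 12.04 CPM in C75S and at 10.9, 11.5 and 12.4 CPM in WT. C75S replicate 3 lay below WT replicate 3, so the groups overlapped. The log2 fold change was 0.26 (SE 0.11, unadjusted p = 0.030, edgeR adjusted p = 0.289). Over the alternatives its adjusted p ranged from 0.156 to 0.590.

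Complex II, which is also an enzyme of the tricarboxylic acid cycle, was the one complex in which every subunit had a positive log2 fold change, from 0.02 for the flavoprotein Sdha to 0.09 for the iron-sulfur protein Sdhb, with 0 calls. Sdha had a negative value in 3 of the 14 alternatives, those that left out WT replicate 1, C75S replicate 2 and C75S replicate 3 (the lowest was -0.02), so this trait of complex II depended on single libraries. Sdhb lay at 117, 122 and 133 CPM in C75S and at 116, 120 and 114 CPM in WT. The groups overlapped, and C75S replicate 3 stood highest (SE 0.05, edgeR adjusted p = 0.532). Sdhc and Sdhd, the membrane anchors, had log2 fold changes of 0.05 and 0.04, each with an SE of 0.05.

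In complex III, 5 of 9 nuclear genes had a positive value, the median was 0.01 and 0 were called. Uqcr10 and Uqcrh, both small accessory subunits, were highest at 0.07 (SE 0.06) and 0.06 (SE 0.05). Uqcrb, which lies near the ubiquinone site, and Uqcrq were lowest at -0.14 (SE 0.15) and -0.08 (SE 0.06). The catalytic subunits Cyc1 (cytochrome c1) and Uqcrfs1 (the Rieske iron-sulfur protein) had 0.04 (SE 0.05) and -0.01 (SE 0.05). Cycs, cytochrome c itself, had a log2 fold change of 0.04 with an SE of 0.27, and its level of 1.55 to 2.51 CPM is taken up below.

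In complex IV, 12 of the 18 nuclear genes were tested, 8 had a positive and 4 a negative value, the median was 0.02 and 0 were called. Among the 11 regular subunits the log2 fold changes lay between -0.10 for Cox7c (SE 0.19) and 0.05 for Ndufa4 (SE 0.06). Cox6c was lower in every C75S library, at 80.7, 78.7 and 80.9 CPM beside 81.4, 85.8 and 81.4 CPM in WT. The gap between the nearest libraries was small, and the log2 fold change was -0.05 (SE 0.05, edgeR adjusted p = 0.763). Cox4i1, the constitutive isoform of subunit 4, lay at 316, 314 and 323 CPM in C75S and at 293, 316 and 314 CPM in WT (log2 fold change 0.05, SE 0.05).

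Complex V held the 3 subunits with the smallest p-values, all of them small accessory proteins of the Fo part: Atp5j2 (subunit f), Atp5k (subunit e) and Atp5mpl (6.8 kDa proteolipid). Atp5j2 (chromosome 5, 145183698 to 145192062, minus strand) was measured at 77.6, 78.2 and 80.8 CPM in C75S and at 71.9, 71.8 and 66.7 CPM in WT. Every C75S library lay above every WT library. The log2 fold change was 0.17 (SE 0.06, unadjusted p = 0.0051), with an edgeR adjusted p of 0.110 that ranged from 0.0921 to 0.339 over the alternatives. Atp5k (chromosome 5, 108433244 to 108434448, minus strand) lay at 57.4, 53.3 and 55.2 CPM in C75S and at 51.0, 51.2 and 44.3 CPM in WT. Atp5mpl (chromosome 12, 111961375 to 111966977, minus strand) lay at 48.9, 48.1 and 48.4 CPM in C75S and at 44.9, 44.3 and 41.0 CPM in WT. Their groups did not overlap either, and WT replicate 3 was the lowest library for all 3 genes. The log2 fold changes were 0.18 (SE 0.07, unadjusted p = 0.013, edgeR adjusted p = 0.181) and 0.16 (SE 0.06, unadjusted p = 0.021, edgeR adjusted p = 0.240). Without WT replicate 3 their log2 fold changes were 0.11 and 0.12, and without that library or without C75S replicate 1 neither had an unadjusted p under 0.05 in edgeR, whereas Atp5j2 kept one in all 14 alternatives.

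**Figure D3:**
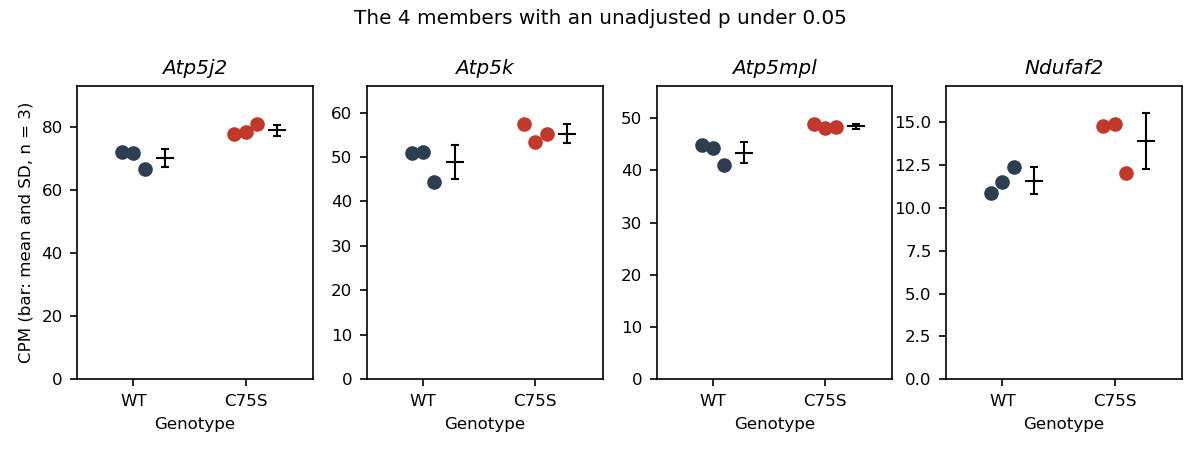
CPM in each library (points) of the 4 members with an unadjusted p under 0.05, with the mean and SD of each genotype (bars, n = 3). For Atp5j2, Atp5k and Atp5mpl the C75S points lie above all WT points, for Ndufaf2 they overlap, and none of the 4 passed the adjusted threshold.

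Over the 16 nuclear subunits of complex V the median was 0.03, with 9 positive and 7 negative values. The 8 subunits counted as core (those of F1 and the c-ring) had a median of 0.01 and the 8 accessory ones 0.07. Atp5l, subunit g, sits beside subunits e and f in Fo and had a log2 fold change of -0.22 with an SE of 0.22, at 2.46 to 4.46 CPM. The catalytic F1 subunit Atp5b lay at 1297, 1401 and 1435 CPM in C75S and at 1305, 1384 and 1363 CPM in WT (log2 fold change 0.03, SE 0.06, edgeR adjusted p = 0.888). The lowest values in the complex were those of Atp5g2, a c-ring gene, at -0.29 (SE 0.31) and of Atp5s, a coupling factor, at -0.25 (SE 0.15, edgeR adjusted p = 0.509). For Atp5s the groups did not overlap, with 5.57, 5.36 and 5.83 CPM in C75S and 6.17, 7.02 and 6.74 CPM in WT.

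Libraries of 1 genotype differed among themselves in the level of the nuclear subunits as a group. WT replicate 1 was the highest of the 6 libraries for 27 of the 78 tested nuclear subunits and the lowest for 12, and WT replicate 3 was the lowest for 33. Over all 12741 genes tested, WT replicate 1 was the highest for 2686 and the lowest for 2684, and WT replicate 3 was the lowest for 2148. Between these 2 WT libraries the median difference was 0.08 on the log2 scale, with 54 of 78 genes higher in replicate 1, beside a median of -0.004 and 49.2% higher over all genes. The median deviation from the mean of the 6 libraries ran from -0.06 in WT replicate 3 to 0.04 in C75S replicate 3, with a pooled SD of 0.04 within genotypes, larger than the median log2 fold change of 0.02 between them. Across the 78 genes Spearman's rho of the deviation with transcript length was -0.24, 0.20 and 0.25 in WT replicates 1 to 3 and 0.02, 0.01 and -0.10 in C75S replicates 1 to 3. Over 11642 genes it was -0.08, 0.06 and 0.20 in WT and -0.05, -0.04 and -0.09 in C75S. The part of length in the differences between libraries was not tested. The mitochondrially encoded genes followed another order, with WT replicate 2 lowest for 5 of 7, beside 1845 of the 12741 genes tested.

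**Figure D4:**
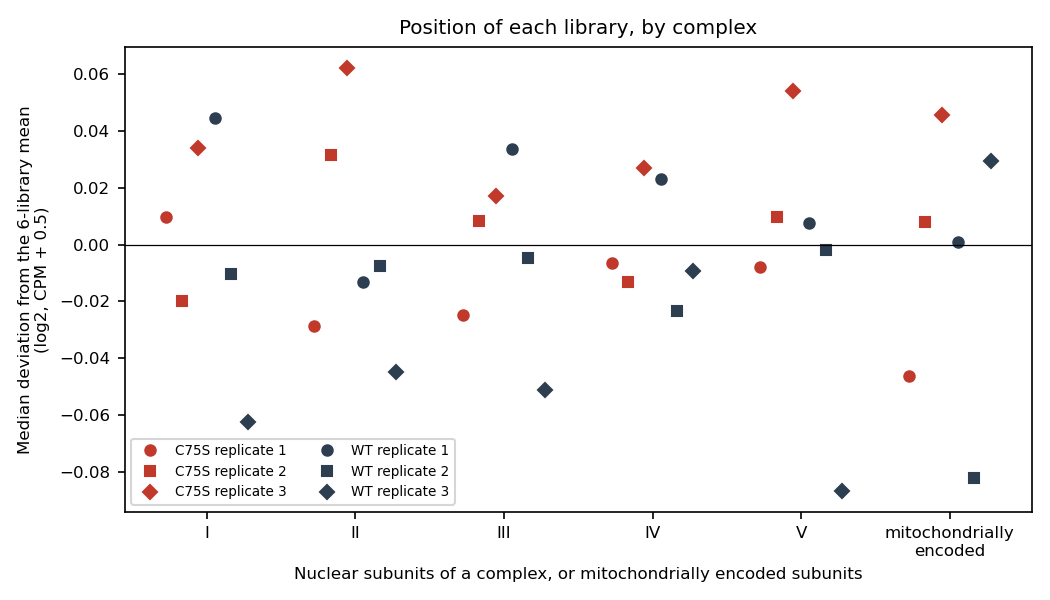
Median deviation of each library from the mean of the 6 (log2 of CPM plus 0.5) over the tested nuclear subunits of each complex and over the 7 tested mitochondrial genes. Symbols stand for replicates and colours for genotypes. WT replicate 3 is the lowest library in complexes I, II, III and V, and WT replicate 2 is the lowest for the mitochondrial genes.

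Levels of the nuclear subunits were compared as CPM per kilobase of annotated exons, averaged over the 6 libraries. The median over the tested subunits of a complex was 37.2 in complex I, 70.7 in II, 86.4 in III, 75.6 in IV and 32.0 in V. The highest in each were Ndufa1 (211), Sdhd (114), Uqcr11 (144), Cox6a1 (350) and Atp5b (322). Cox6a1 and Atp5b were followed by Cox8a (264) and by Atp5a1 (297), the F1 alpha subunit. With the length of the principal transcript in place of all exons, an alternative chosen after the data had been seen, the medians were 58.2, 109, 121, 154 and 97.8, and Sdha (125) and Uqcrh (265) took the first places in complexes II and III. The order of the complexes by median thus depended on the length used. The lowest tested genes were Ndufb4 (1.42), Sdhc (26.9), Uqcrb (9.93), Cox7a1 (1.32) and Atp5l (0.58) per kilobase of exons.

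Low values went with copies in the nuclear genome too. Of the 77 nuclear core and accessory subunits, 17 have a stretch of at least 75 bases repeated at another locus with at least 98% identity, mostly as pseudogenes, and among the 12 lowest by CPM per kilobase of exons 10 had one. In 13 genes the copies cover at least 30% of the transcript: Ndufa12, Ndufb4, Ndufs5, Ndufs3, Uqcr11, Uqcrb, Cox5b, Cox7c, Atp5f1, Atp5h, Atp5l, Atp5g2 and Cycs. Their median level was 9.93 CPM per kilobase of exons, from 0.58 to 144, beside a median of 62.2 and a range of 4.23 to 350 for the 60 genes without a copy. Cycs had 2.07 CPM on average and 7 loci with a repeated stretch, while Cyc1, which passes electrons to cytochrome c from complex III, had 184 CPM and none. The longest of the Cycs copies, Gm10053, covers 30.3% of its transcript. Several of the 7 loci (Gm22907, Gm26268, Gm22625 and Gm24979) are short annotated miRNA genes that each match only 3.43%. Cox7c had 4.42 CPM, Uqcrb 8.70 and Atp5l 3.73. Uqcr11, with 38.4% covered, was nevertheless the highest of complex III at 144 CPM per kilobase of exons. The levels of these 13 genes are uncertain, and the part of the copies in them was not tested. With copies of at least 95% identity, also chosen after the data had been seen, the number of such genes was 21. Outside complex I this added Uqcr10, Cox6c, Atp5k (56.6% covered), Atp5o and Atp5c1. The complex I genes that it added were Ndufs6 (61.3% covered), Ndufb3 and Ndufb11. Their levels of 94.7, 54.4 and 53.2 CPM per kilobase of exons lay above the complex I median of 37.2. The relation of low values with copies is thus given for the 98% cutoff alone.

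**Figure D5:**
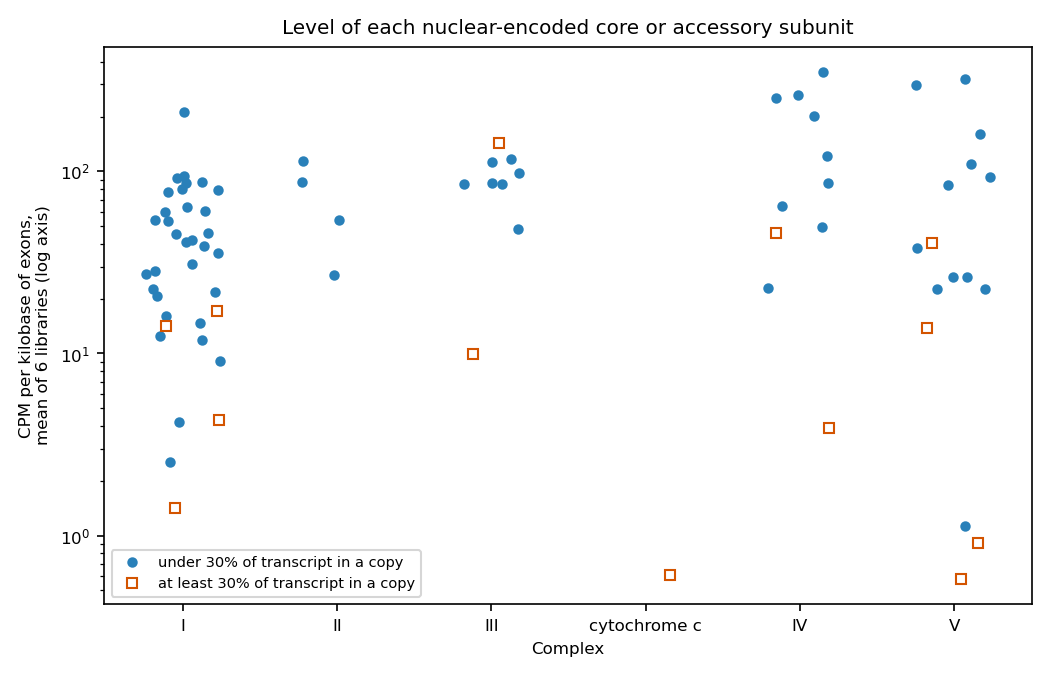
CPM per kilobase of exons (mean of 6 libraries, log axis) of the 77 nuclear-encoded core and accessory subunits, by complex; horizontal position within a complex carries no meaning. Open squares are the 13 genes with at least 30% of the transcript in a copy of at least 98% identity, and most of them lie in the lower part of their complex.

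Several subunits come in isoforms with known tissue preferences, and the counts followed the liver or general forms. Over the 6 libraries Cox6a1, the liver form of subunit 6a, had 29317 counts and Cox6a2, the heart and muscle form, 28. Per kilobase of exons Cox6a1 was 1014-fold higher (95% counting interval 702 to 1526). Cox7a2, the general form of subunit 7a, had 13653 counts and its muscle form Cox7a1 had 84, a ratio of 92.1 per kilobase (74.4 to 115). Cox8a had 19514 counts and the muscle form Cox8b 0, so that Cox8a was at least 3783-fold higher against a floor of 3 counts over the 6 libraries. For Cox8c, which is expressed in testis, and Cox7b2 there were 0 counts as well, which put Cox8a at least 4813-fold and Cox7b at least 1872-fold higher. Cox4i1 had 37279 counts and Cox4i2, a lung form, 1; Cox6b1 had 21382 and Cox6b2, a testis form, 4. The intervals and floors cover counting error only.

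The c-ring of ATP synthase is made of 1 mature protein encoded by several genes. Atp5g3 had 24070 counts, Atp5g1 666 and Atp5g2 184, and per kilobase of exons Atp5g3 was 81.4-fold above Atp5g1 (75.4 to 87.9) and 100-fold above Atp5g2 (87.0 to 117). These ratios depend on the length used, since the annotated exons of Atp5g3 span 2181 bases and its principal transcript 723. Atp5g1 had 1.13 and Atp5g2 0.92 CPM per kilobase of exons. With the principal transcript their order was reversed, at 1.18 and 2.10. Copies cover 88.2% of Atp5g2 and 12.8% of Atp5g1, and the part of the copies in the ratios was not tested. Cox7a2l, a relative of subunit 7a that takes part in joining complexes III and IV, had 18897 counts.

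Ndufa4 and Ndufa4l2 were exceptions to the dominance of 1 form. Ndufa4, a subunit of complex IV despite its name, had 64.4 CPM per kilobase of exons, and its hypoxia-induced relative Ndufa4l2 had 133. The annotated exons of Ndufa4 span 1381 bases and its principal transcript 610, beside 1095 and 934 for Ndufa4l2. The size of the difference in level between the 2 genes thus depends on the length used, and it is smaller with the principal transcript. Ndufa4l2 lay at 131, 112 and 155 CPM in C75S and at 151, 178 and 144 CPM in WT. Its libraries spread more widely than those of Ndufa4 (80.8 to 94.8 CPM), and the groups overlapped. The log2 fold change was -0.25 (SE 0.15, 95% interval -0.62 to 0.13, edgeR adjusted p = 0.566). Over the alternatives the adjusted p ranged from 0.0506, without C75S replicate 3, to 0.791, and 0 alternatives called it.

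Cox7a1 was the 1 muscle form that passed the filter, with 0.40, 1.04 and 1.23 CPM in C75S and 0.33, 0.44 and 0.78 CPM in WT. The groups overlapped, and the log2 fold change was 0.80 (SE 0.48, edgeR adjusted p = 0.505). Beside it, the 5 markers of striated muscle summed to 70.7 to 100 CPM in C75S and to 48.0 to 53.7 CPM in WT, nearly all of it Acta1 (log2 fold change 0.71, SE 0.14, edgeR adjusted p = 0.0627), while the defining muscle genes Ckm, Mb and Tnnt3 were at 0 in every library. The other 6 nuclear subunit genes that did not pass the filter were Cox4i2, Cox6a2, Cox6b2, Cox7b2, Cox8b and Cox8c, and the second entry for Atp5o had 0 counts.

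Genes that build or feed the machinery were read from the same test. Of 38 assembly factors outside the naming rule 0 were called, with a median log2 fold change of 0.01. The 23 genes that copy, transcribe and regulate mitochondrial DNA, among them Tfam, Polrmt, Nrf1 and Ppargc1a, had 0 calls and a median of 0.02, and the 13 genes of the tricarboxylic acid cycle had 0 calls and a median of 0.01. Among 77 tested genes of the mitochondrial ribosome, which translates the 13 mitochondrial messages, 1 was called (3.11% of all genes were), 59 had a positive log2 fold change and the median was 0.06. The called gene was Mrpl42, a protein of the large subunit, with 53.2, 51.4 and 52.5 CPM in C75S and 45.3, 43.9 and 43.5 CPM in WT. The groups did not overlap, and the log2 fold change was 0.24 (SE 0.06, edgeR adjusted p = 0.0254). Its call was kept in 9 of 14 alternatives and lost without C75S replicate 1, 2 or 3 or WT replicate 2 or 3, with adjusted p-values from 0.0217 to 0.105 over all alternatives.

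Nuclear genes of this pathway are known for promoters with sites for NRF1 and for ETS factors such as GABP, and RefSeq promoter sequences (GRCm38.p6, from 250 bases before to 50 after the start) were at hand for 68 of the 84 nuclear subunit genes, 73 promoters in all. The NRF1 core motif, a palindrome of 10 bases that reads the same on both strands, was in 5 of the 73 (6.85%), beside 0.971% of 32851 promoters of all genes. The 5 were Atp5k, Cox6a1, Uqcrc1, Atp5g2 and Ndufa11. The same motif with any base at its sixth position, which includes the core, was in 24.7% beside 4.60%, the ETS letters CCGGAAG in 21.9% beside 8.86%, the YY1 letters AAGATGG in 15.1% beside 6.34%, and TATAAA in 10.96% beside 13.6%, each searched on both strands. A match describes letters and is not evidence of binding.

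The 250 bases before the RefSeq start are printed for Atp5k (chr5:108434400-108434649, minus strand), one of the genes nearest to the threshold, and for Cox6a1 (chr5:115348959-115349208, minus strand), the highest of complex IV, with the NRF1 core in capitals. The core begins 50 bases before the RefSeq start of Atp5k and 162 bases before that of Cox6a1. The GENCODE starts, at 108434448 for Atp5k and 115348981 for Cox6a1, lie inside the printed stretches. The end of each stretch is thus within the gene as GENCODE places it, and the core of Atp5k lies at its GENCODE start.
Atp5k: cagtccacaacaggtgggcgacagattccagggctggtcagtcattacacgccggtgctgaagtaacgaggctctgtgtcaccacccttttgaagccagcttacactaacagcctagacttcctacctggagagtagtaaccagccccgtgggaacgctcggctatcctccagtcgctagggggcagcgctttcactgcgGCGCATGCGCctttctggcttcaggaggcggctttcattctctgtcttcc
Cox6a1: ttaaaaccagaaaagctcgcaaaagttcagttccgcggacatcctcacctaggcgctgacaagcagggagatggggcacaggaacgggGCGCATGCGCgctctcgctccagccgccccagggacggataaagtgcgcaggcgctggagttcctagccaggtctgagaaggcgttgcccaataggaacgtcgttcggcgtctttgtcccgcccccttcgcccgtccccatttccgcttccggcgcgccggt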

How the data were processed

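The authors deposited raw counts per Ensembl gene for each of the 6 libraries, in 3 columns (unstranded and each strand), and these deposited counts were used as they stand. Per the labels' protocols, libraries were made with an Illumina TruSeq kit. The submitters' processing notes name Trim Galore 0.6.6, STAR 2.7.9a, edgeR 3.36.0 and GRCm38 (mm10). The reverse-strand column was used (its total was 33.3 times that of the other strand). Rows that name no gene (4 per file, for unmapped reads at 4.37% to 5.81%, multimapping at 18% to 18.5%, featureless at 4.99% to 5.55% and ambiguous at 0.891% to 0.926%) were dropped, and 0 columns of other samples were present. Of 55487 gene rows, 55227 matched GENCODE M21, from which positions and exon lengths were taken.

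Genes were filtered with filterByExpr (minimum count 10, minimum total 15), scaled by TMM and compared in edgeR 4.0.16 under R 4.3.3, using the quasi-likelihood F-test (two-sided) with no term but genotype, and p-values were adjusted by Benjamini-Hochberg over 12741 genes at 0.05. CPM use TMM-scaled library sizes. Copies were sought with blastn 2.17.0 among all GENCODE transcripts. The test was checked on simulated data. Alternatives were RLE or library-size scaling, DESeq2 1.42.0, other filters, unstranded counts, removal of mitochondrial genes, a replicate term and leaving out each library. The members and gene lists were chosen with earlier results of these data known. Genes were named by rule: called members, the 2 largest positive and negative log2 fold changes and the highest and lowest level per complex, all mitochondrial genes, isoform families and untested members. Others (such as Ndufv1, Ndufs4, Cox6c, Atp5mpl, Cyc1, Uqcrfs1 and Mrpl42) were named after their values were seen.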

Additional observations from a re-analysis of the deposited data

How the results depend on the processing

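In each of the 14 alternatives 0 members were called, at a smallest adjusted p of 0.0506 (Ndufa4l2 without C75S replicate 3). Changes of sign were counted for 42 tested members, nearly all of them named by rule, and 18 of these changed sign in at least 1 alternative. Ndufv1, Ndufs4, Cox6c, Cyc1 and Uqcrfs1, named after their values were seen, were not among the 42. The median log2 fold change ranged from 0.007 to 0.045 for nuclear subunits and from -0.017 (without WT replicate 2) to 0.050 for mitochondrial ones. Leaving out each library moved the number of all genes called from 396 to between 201 and 355, the 3 that cost most being C75S replicate 1 (253 left), WT replicate 2 (201) and WT replicate 3 (246). With no filter on low counts 573 genes were called. Same-numbered libraries did not deviate together (correlations 0.017, -0.040 and 0.025), so the numbers were not taken as pairs; with the replicate block 480 genes and 0 members were called. The 95% interval reached beyond 1.2-fold for 22 members, 16 of which had a mean under 15 CPM.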
